A study of Rattus norvegicus with 10 samples.

Results

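The genes described here encode 4 enzymes of the kynurenine route of tryptophan breakdown, together with enzymes that salvage nicotinate or nicotinamide, complete NAD synthesis or methylate nicotinamide. They were chosen by symbol, and 9 of the 10 symbols (*Afmid*, *Haao*, *Qprt*, *Acmsd*, *Nampt*, *Nadsyn1*, *Nmnat1*, *Nmnat3* and *Nnmt*) were found under that name among the 32545 genes of the RNA-seq table. The remaining symbol, *Naprt*, has the older name *Naprt1* in RefSeq, and the table lists the gene under that older name, so that all 10 were described. The table holds 10 RNA-seq libraries of frozen kidney cortex, each from 1 PCK rat (PCK/CrljCrl-Pkhd1pck/Crl), 5 of them male and 5 female. Both sexes carry the *Pkhd1* mutation that makes this strain a model of autosomal recessive polycystic kidney disease, and the groups differ by sex, with no treatment named. The rats were 10 to 12 weeks old by the methods and 12 to 14 weeks old by the series text, and were drawn from 2 litters, with no source used here tying a library to its litter. No library of a strain without cysts was analysed here, so the values compare male with female cystic cortex and not cystic with healthy tissue.

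Libraries held 13912569 to 20285911 reads on genes. Mitochondrial genes took 14.3% to 19.1% of the reads in 9 libraries and 26.8% in female 2, which stood apart. Markers of the proximal tubule had a summed level of 2236 to 3459 FPKM (fragments per kilobase of gene length, scaled to library depth) in males, against 1817 to 3563 FPKM among females, the lowest being female 2. Of these 10 proximal markers, 1, *Cubn*, was called higher in females by limma, and the median log2 fold change of the list was −0.04. At an unadjusted limma p of at most 0.05 there were 3, *Cubn* with a log2 fold change of 0.72 and, in the opposite direction, *Slc22a6* with −0.53 and *Aqp1* with −0.56. Counts of markers at an unadjusted limma p of at most 0.05 are to be read against 15.7% of all tested genes. Fibroblast markers summed to 190 to 267 FPKM in males against 68.6 to 203 FPKM among females, and 0 of 6 were called by limma, with 5 at an unadjusted p of at most 0.05. T cell markers summed to 7.98 to 21.7 FPKM in males against 2.70 to 19.2 FPKM among females, with 0 of 4 called by limma and 0 at an unadjusted p of at most 0.05. Markers of intercalated cells summed to 104 to 171 FPKM in males and, without overlap, 176 to 276 FPKM among females, with 0 of 4 called by limma and 4 at an unadjusted p of at most 0.05. Macrophage markers summed to 89.5 to 174 FPKM in males against 41.8 to 103 FPKM in females, and 0 of 6 were called by limma, with 2 at an unadjusted p of at most 0.05. By limma, no marker of the thick ascending limb, distal convoluted tubule, principal cell, podocyte or endothelium was called. In that order, 1 of 3, 2 of 2, 1 of 4, 1 of 4 and 0 of 5 tested had an unadjusted p of at most 0.05. Each of these was higher in females. Median log2 fold changes of these lists were 0.35, 0.42, 0.40, 0.26 and 0.03. The part of cell makeup in the results that follow was not tested. In bulk cortex, fewer cells of a type and less RNA per cell cannot be told apart.

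Tryptophan enters this route when its indole ring is opened to formylkynurenine, which arylformamidase (*Afmid*) turns into kynurenine. Kynurenine is then hydroxylated by *Kmo* and cleaved by *Kynu*, and 3-hydroxyanthranilate dioxygenase (*Haao*) opens the ring of the product to give an unstable semialdehyde. This compound either closes by itself to quinolinate, which *Qprt* converts into the first mononucleotide of de novo NAD synthesis, or is decarboxylated by *Acmsd* and led away from NAD towards full oxidation. Dietary nicotinate joins through *Naprt*, and nicotinamide released by NAD-consuming enzymes is salvaged by *Nampt* or methylated by *Nnmt* for excretion. *Nmnat* enzymes add the adenylyl group and *Nadsyn1* amidates the acid form to NAD. Kidney and liver are the classical organs of the de novo route, which in the kidney belongs to the proximal tubule.

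RefSeq promoters of build GRCr8 were matched by symbol for 6 of the 10 genes (*Afmid*, *Haao*, *Nadsyn1*, *Nmnat1*, *Nmnat3* and *Qprt*), and each run gives the 250 bases before the start site, 5′ to 3′ on the strand of the gene. *Qprt* and *Haao* are shown because, of these 6 genes, they had the largest fitted log2 fold changes in size (−0.57 and −0.40), neither of which was called. On GRCr8 the *Haao* stretch is chr6:16598075-16598324 on the plus strand and the *Qprt* stretch is chr1:191164007-191164256 on the minus strand. Capitals mark the hexamers AGGTCA, found in the sites of many nuclear receptors, and AGAACA, found in the sites of the androgen and glucocorticoid receptors, each searched on both strands.
Haao: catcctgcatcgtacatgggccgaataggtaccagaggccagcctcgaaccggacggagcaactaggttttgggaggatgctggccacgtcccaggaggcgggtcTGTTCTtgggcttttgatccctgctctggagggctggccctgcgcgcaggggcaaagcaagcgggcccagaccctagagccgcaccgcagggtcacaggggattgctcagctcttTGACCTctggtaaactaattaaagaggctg
Qprt: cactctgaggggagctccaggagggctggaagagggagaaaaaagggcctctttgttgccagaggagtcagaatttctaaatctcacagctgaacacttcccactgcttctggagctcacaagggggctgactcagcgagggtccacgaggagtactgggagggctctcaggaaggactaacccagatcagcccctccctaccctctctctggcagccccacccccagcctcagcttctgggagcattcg
The *Haao* stretch holds TGACCT, the reverse complement of AGGTCA, 30 bases before the start and TGTTCT, the reverse complement of AGAACA, 145 bases before it. The *Qprt* stretch holds neither set of letters. Of the 6 promoters, 2 (*Haao* and *Nmnat3*) hold AGGTCA and 1 (*Haao*) holds AGAACA, against 14.1% and 17.5% of 33469 promoters of the same length. These matches describe letters and were not tested as binding sites.

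The 10 genes differed widely in level. Over all rats, *Acmsd* had a mean of 205 FPKM, *Naprt* 199 FPKM, *Haao* 153 FPKM and *Qprt* 78.9 FPKM, so that the enzymes around the semialdehyde and the nicotinate step were the most abundant of the 10 transcripts. *Acmsd* was the 346th and *Naprt* the 356th of 17631 tested genes by mean FPKM. *Afmid* (45.2 FPKM) and *Nampt* (27.3 FPKM) came next, and *Nmnat3* (10.6 FPKM), *Nadsyn1* (10.1 FPKM) and *Nmnat1* (8.76 FPKM) were close together further down. *Nnmt* was the least abundant, at 0.783 FPKM. The order *Haao*, *Qprt*, *Afmid*, *Nampt*, *Nmnat3* held in 10 of 10 rats at each step, as did that of *Nmnat1* over *Nnmt*. Neighbours at the top could not be ordered, since *Acmsd* exceeded *Naprt* in 4 of 5 males and in 1 of 5 females, and *Naprt* exceeded *Haao* in 3 of 5 males and in 5 of 5 females. *Nmnat3* exceeded *Nadsyn1* in 7 of 10 rats and *Nadsyn1* exceeded *Nmnat1* in 8 of 10, differences of means of 1.05-fold and 1.15-fold.

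**Figure D1:**
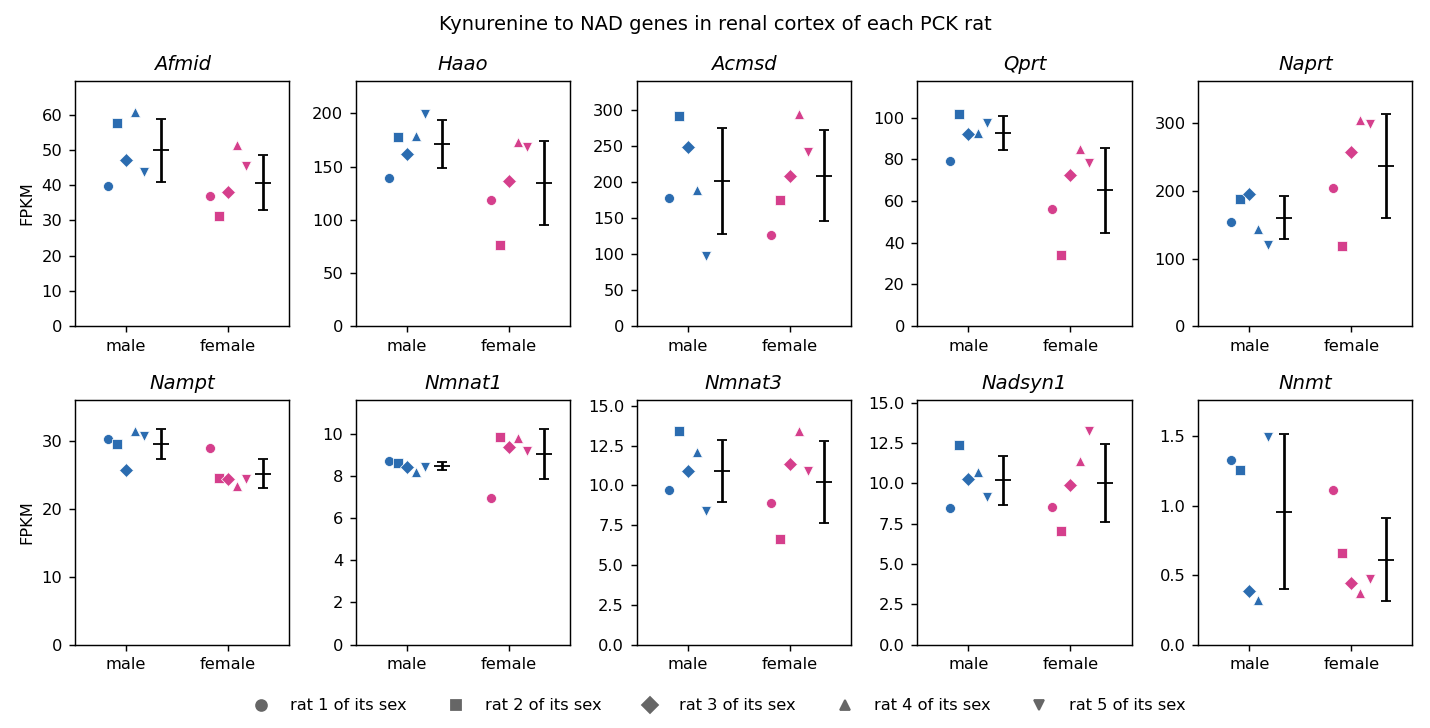
FPKM of each gene (vertical axis, from 0, with its own scale per gene) in the 5 male (blue) and 5 female (pink) PCK rats, with 1 symbol per rat and the mean ± SD in black. Male and female ranges overlap for each of the 10 genes. Female 2 (square) is the lowest of all rats for *Afmid*, *Haao*, *Qprt*, *Naprt*, *Nmnat3* and *Nadsyn1*.

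Sex was compared with limma on log2(FPKM + 0.1), with p adjusted over all 17631 tested genes. All 10 genes passed the filter of a mean of at least 0.1 FPKM. With the thresholds of the study's methods, an adjusted p of at most 0.05 and a change of at least 1 on the log2 scale, none of the 10 was called, where 1.32% of all tested genes were. With the adjusted p alone none was called either, where 2.4% of all genes were. By the limma p before adjustment, 2 of the 10 (*Nampt* and *Qprt*) were at or under 0.05, and 15.7% of all genes were. An exact permutation test on mean FPKM gave the same 2 genes, where 14.8% of all genes had an exact p this low. Limma-voom on the reads recovered from the FPKM called none of the 10. No gene of the 10 had ranges that were separate between the sexes, while 5.1% of all tested genes had. Log2 fold changes of females over males were below 0 for 7 genes and above 0 for 3, with a median of −0.17 beside −0.01 for all tested genes. Without female 2 they were below 0 for 5 genes and above 0 for 5, with a median of −0.09. The intervals given below are 95% intervals of limma for each gene alone.

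*Qprt* (ENSRNOG00000016980, Rnor_6.0 chromosome 1, 198544262 to 198559568, minus strand), the entry to de novo NAD synthesis, had the largest fitted log2 fold change in size among the 10, although the ratio of group means was larger for *Nnmt* and *Naprt*, and so was the size of the log2 fold change (−0.49 and 0.74) once female 2 was left out. Males had 79.4, 102, 92.3, 92.6 and 97.6 FPKM, and females had 56.0, 33.9, 72.7, 85.0 and 78.1 FPKM. In females, 4 of 5 rats lay below the lowest male, and female 4 lay within the male range. The male mean was 92.7 ± 8.39 FPKM and the female mean 65.2 ± 20.5 FPKM (SD, n = 5 each), from 575 to 2294 reads per rat. The log2 fold change was −0.57 (standard error 0.22, 95% interval −1.05 to −0.10), with a limma adjusted p of 0.223, and the exact permutation p was 0.0159. Without female 2 the log2 fold change was −0.36 (limma adjusted p = 0.150) and the exact permutation p was 0.0238.

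*Acmsd* (ENSRNOG00000003884, chromosome 13, 44424689 to 44468734, plus strand), which draws the same semialdehyde away from NAD, was not called either, and its difference from *Qprt* was not tested. Its levels in males were 178, 292, 249, 190 and 97.5 FPKM and in females 126, 176, 209, 294 and 241 FPKM. Both sexes covered nearly the same range, with male 5 lowest of all. The means were 201 ± 74.0 FPKM in males and 209 ± 63.8 FPKM in females (SD, n = 5 each), and the log2 fold change was 0.09 (95% interval −0.56 to 0.75, adjusted p = 0.924 by limma). This interval runs from a 1.48-fold lower to a 1.68-fold higher level in females. The sign turned to −0.15 without male 5 and to −0.05 without female 4.

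*Haao* (ENSRNOG00000031263, chromosome 6, 7045152 to 7058314, minus strand), the dioxygenase that makes the semialdehyde, had male levels of 139, 178, 161, 178 and 200 FPKM. Female levels were 119, 76.5, 136, 173 and 168 FPKM, so that 3 of 5 females lay below the lowest male. The log2 fold change was −0.40 (95% interval −0.85 to 0.05, limma adjusted p = 0.387), and −0.21 once female 2 was left out. Its exact permutation p was 0.103, and 0.0476 when the libraries were scaled to equal total reads. That scaling moved the median log2 fold change of all tested genes to −0.08. *Afmid* (ENSRNOG00000050205, chromosome 10, 106828981 to 106844314, plus strand), further up the route, averaged 49.8 ± 8.95 FPKM in males against 40.6 ± 7.85 FPKM in females (SD, n = 5 each). Its male values ran from 39.8 to 60.6 FPKM and its female values from 31.3 to 51.4 FPKM, with 3 of 5 females below the lowest male. The log2 fold change was −0.30 (95% interval −0.63 to 0.04, limma adjusted p = 0.391). The exact permutation p of *Afmid* was 0.119, and 0.0397 with equal total reads. Leaving out female 2 gave *Afmid* a log2 fold change of −0.21 (adjusted p = 0.476 by limma) and an exact permutation p of 0.238. Both genes thus had lower female means that were not past the spread between rats in the FPKM as deposited.

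*Naprt* (ENSRNOG00000007939, listed as *Naprt1*, chromosome 7, 116922944 to 116926555, minus strand), the first enzyme of NAD synthesis from nicotinate, had the largest difference towards females. Males had 154, 188, 196, 144 and 120 FPKM, and females had 204, 119, 257, 305 and 300 FPKM. In females, 4 of 5 rats lay above the highest male, and female 2 lay just below the lowest male. Means were 160 ± 31.7 FPKM in males and 237 ± 77.4 FPKM in females (SD, n = 5 each), from 3354 to 10806 reads per rat. The log2 fold change was 0.51 (standard error 0.25, 95% interval −0.04 to 1.06, limma adjusted p = 0.359), and the exact permutation p was 0.0952. The comparison turned on female 2. Without that library the female mean was 266 ± 46.8 FPKM (SD, n = 4), the log2 fold change was 0.74, the limma adjusted p was 0.0508 and the exact permutation p was 0.00794, with no overlap between the sexes. Female 2 was the only female not above all males, so leaving it out set the lack of overlap in advance. An exact p of 0.00794 is the smallest that 5 against 4 can give. The share of all genes without overlap in that set was not computed. Over all genes, 543 passed the limma adjusted p in that fit, against 424 with all rats.

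*Nampt* (ENSRNOG00000009754, chromosome 6, 52122085 to 52156472, plus strand), the rate-limiting enzyme of nicotinamide salvage, had the smallest SD within a sex, pooled over both sexes, of the 10 genes on the log2 scale. Among males alone *Nampt* varied more than *Nmnat1*, with coefficients of variation of 7.61% and 2.38%. Its male levels were 30.3, 29.5, 25.7, 31.4 and 30.7 FPKM and its female levels 29.0, 24.6, 24.4, 23.4 and 24.4 FPKM. Of the females, 4 of 5 lay below the lowest male, and female 1 lay among the males. That SD was 0.12, and 13.8% of the 9334 genes averaging 5 FPKM or more had a lower one. With means of 29.5 ± 2.25 FPKM in males and 25.2 ± 2.18 FPKM in females (SD, n = 5 each), the log2 fold change was small at −0.23 (standard error 0.08, 95% interval −0.41 to −0.05). The limma adjusted p was 0.200 and the exact permutation p 0.0159, the exact p staying between 0.0159 and 0.0476 with each rat left out. *Naprt* exceeded *Nampt* in each of the 10 rats.

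**Figure D2:**
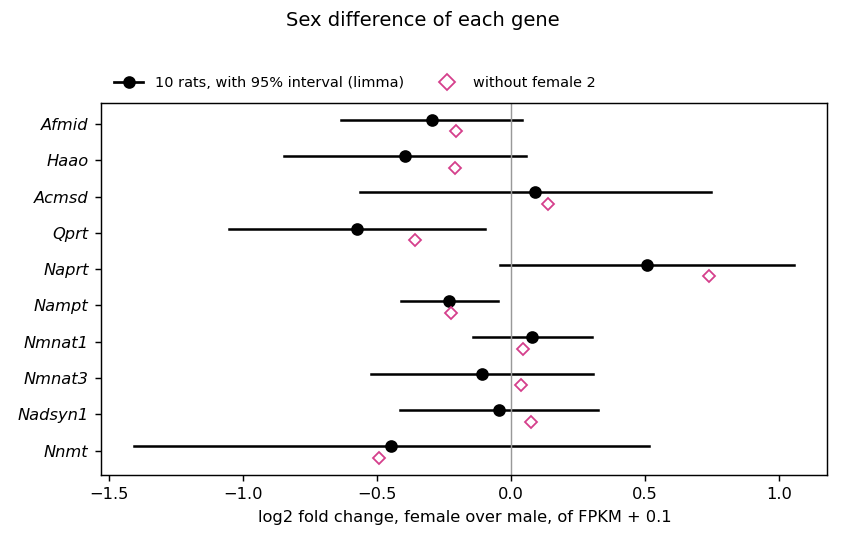
Log2 fold change of females over males (horizontal axis, on log2(FPKM + 0.1)) for each gene. Filled circles with lines give the value and 95% limma interval over 10 rats, and open diamonds the value without female 2. The intervals of *Qprt* (−1.05 to −0.10) and *Nampt* (−0.41 to −0.05) lie below 0, that of *Naprt* (−0.04 to 1.06) just includes 0, and none was past the adjusted threshold.

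None of the genes of the last steps was called. *Nmnat1* (ENSRNOG00000015962, chromosome 5, 166409461 to 166430254, minus strand), the nuclear adenylyltransferase, measured 8.72, 8.63, 8.45, 8.20 and 8.41 FPKM in males and 6.97, 9.86, 9.38, 9.78 and 9.17 FPKM in females. Males were nearly equal, with a coefficient of variation of 2.38%, and 4 of 5 females lay above the highest male while female 1 lay below the lowest. The male values rested on 256 to 355 reads per rat, and the part of counting error in their narrow range was not tested. The log2 fold change was 0.08 (95% interval −0.14 to 0.30, limma adjusted p = 0.766), and the exact permutation p was 0.357. That p was 0.00794, the smallest that 5 against 4 can give, when female 1 was left out. Female 1 was the only female not above all males, so leaving it out set the lack of overlap in advance. The share of all genes without overlap in that set was not computed. In the fit without female 1 limma gave a log2 fold change of 0.17 with an adjusted p of 0.279, and *Nmnat1* was not called. *Nmnat3* (ENSRNOG00000013585, chromosome 8, 106317124 to 106429522, plus strand), the mitochondrial form, averaged 10.9 ± 1.97 FPKM in males against 10.2 ± 2.58 FPKM in females (SD, n = 5 each). Its log2 fold change was −0.11 (95% interval −0.52 to 0.30, limma adjusted p = 0.837), and 0.04 without female 2. The third family member, *Nmnat2*, not counted among the 10 genes, had 1 to 9 reads per rat. *Nadsyn1* (ENSRNOG00000020736, chromosome 1, 216985714 to 217013702, minus strand), which makes NAD from its acid form, ranged from 8.46 to 12.4 FPKM in males, and the female values of 7.02 to 13.3 FPKM enclosed that range. Its log2 fold change was −0.05 (95% interval −0.42 to 0.32, limma adjusted p = 0.933), and the sign turned to 0.07 without female 2, to 0.03 without male 2 and to 0.003 without female 1. A higher female level of the size seen for *Naprt* lies outside the intervals of *Nmnat1*, *Nmnat3* and *Nadsyn1*.

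*Nnmt* (ENSRNOG00000005930, chromosome 8, 52925175 to 52937972, minus strand), which methylates nicotinamide, rested on 6 to 25 reads per rat. Males had 1.33, 1.25, 0.388, 0.317 and 1.49 FPKM and females had 1.11, 0.662, 0.442, 0.369 and 0.468 FPKM. In males, 3 rats lay above the highest female and 2 lay near the lowest females, so the male group itself was split. The log2 fold change was −0.45 (95% interval −1.41 to 0.51, limma adjusted p = 0.684) and the exact permutation p was 0.270. With 1 rat left out the log2 fold change ran from −0.73 (without male 4) to −0.25 (without male 5), and it was −0.25 with a pseudocount of 1. The interval over 10 rats runs from a 2.65-fold lower to a 1.43-fold higher female level.

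**Figure D3:**
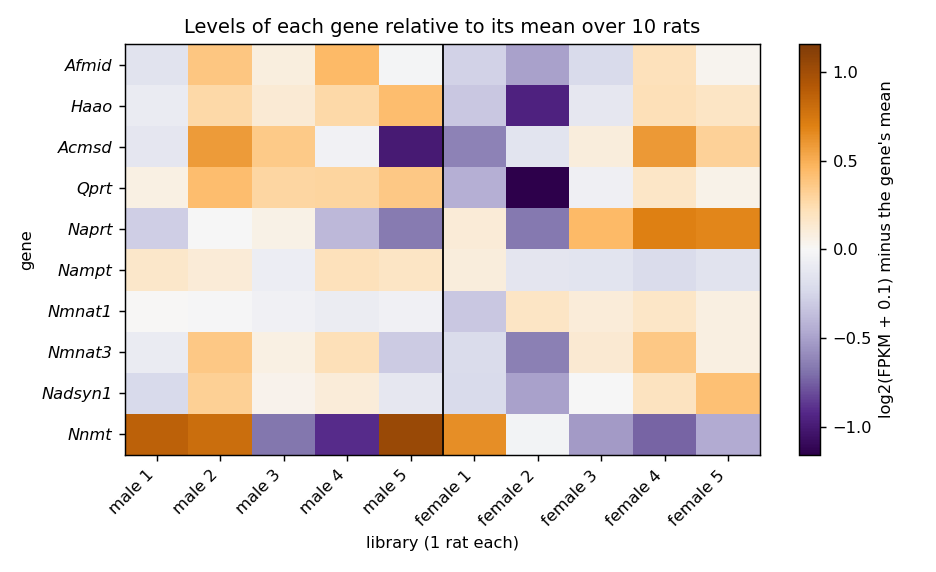
Log2(FPKM + 0.1) of each gene (rows) minus its mean over the 10 rats, by library (columns, males left and females right of the line). The column of female 2 is low for 6 genes, and male 5 is lowest for *Acmsd*, at 97.5 FPKM, while highest for *Haao* and *Nnmt*.

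Rats differed in the route beyond their sex. Female 2 had the lowest level of all 10 libraries for 6 of the 10 genes (*Afmid*, *Haao*, *Qprt*, *Naprt*, *Nmnat3* and *Nadsyn1*). That library was the lowest for 25.7% of all tested genes averaging 5 FPKM or more. Its share of mitochondrial reads (26.8%) stood apart as well. Its summed proximal tubule markers (1817 FPKM) were the lowest of the 10 libraries without standing apart, the next being male 5 at 2236 FPKM. Of the 10 proximal tubule markers, 3 were lowest in female 2 and 6 in male 5. Female 2 had the highest sums of intercalated cell (276 FPKM), podocyte (168 FPKM) and endothelial markers (129 FPKM) of the 10 libraries. The part of these measures in the low values was not tested. *Nmnat1* was highest in the same library, at 9.86 FPKM, and *Acmsd* (176 FPKM) lay within the range of the other females. The spread within a sex was wide for *Acmsd*, at 0.54 on the log2 scale, higher than for 95.5% of genes averaging 5 FPKM or more. *Naprt* (0.45), *Qprt* (0.39) and *Haao* (0.36) also spread more than 87.1% of those genes or more, whereas the median gene had an SD of 0.20. Without female 2 the SD was 0.28 for *Naprt*, 0.20 for *Qprt* and 0.22 for *Haao*, where the median gene had 0.17, and it was 0.57 for *Acmsd*.

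Since FPKM are per length, levels of enzymes at 1 branch point, at successive steps or at alternative entries were set against each other within each rat, as a description with no test. *Qprt* over *Acmsd*, the routes into and away from NAD at the semialdehyde, was 0.445, 0.348, 0.370, 0.489 and 1.0 in males and 0.445, 0.193, 0.348, 0.289 and 0.324 in females. *Acmsd* was thus the more abundant transcript in 9 of 10 rats, by up to 5.18-fold in female 2, and male 5 alone had about equal levels. Male 5 was also the lowest library for 6 of the 10 proximal tubule markers and had the highest summed macrophage (174 FPKM), fibroblast (267 FPKM) and T cell markers (21.7 FPKM), whose part in its ratios was not tested. *Haao* over *Acmsd* was 0.610 to 2.05 in males and 0.435 to 0.942 in females, with male 5 again highest. *Naprt* over *Nampt*, the nicotinate against the nicotinamide entry, had a median of 5.09 in males (3.89 to 7.64) and of 10.5 in females (4.83 to 13.0). In females 3 rats lay above the highest male, and females 1 and 2 lay within the male range. *Nnmt* over *Nampt*, methylation against salvage of nicotinamide, was 0.0101 to 0.0486 in males and 0.0158 to 0.0384 in females. *Nmnat1* over *Nmnat3*, the nuclear against the mitochondrial form, was 0.643 to 1.0 in males and 0.730 to 0.840 in 4 females, with 1.49 in female 2.

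**Figure D4:**
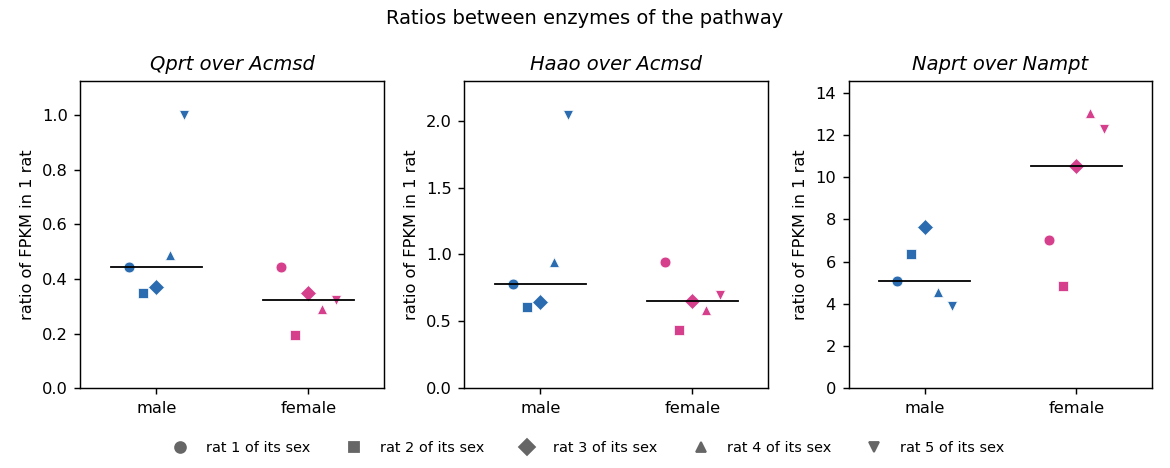
Ratio of FPKM within a rat (vertical axis, from 0) for 3 pairs of genes, with 1 symbol per rat, males in blue, females in pink and the median as a line. Male 5 has the highest *Qprt* over *Acmsd* (1.0) and *Haao* over *Acmsd* (2.05), and 3 females have a *Naprt* over *Nampt* above the highest male (7.64).

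Other genes of the pathway were read from lists of 53 symbols, of which *Tnks2* and *Aox3* were not analysed here. The lists gave 52 entries, since *Slc25a51* has 2 entries under its older symbol, and 46 of them passed the filter. By limma adjusted over all genes, 1 of the 46 was called, higher in females, and 8 had an unadjusted p of at most 0.05. Over all tested genes these shares were 2.4% and 15.7%, so that both counts were near the background. This gene was *Slc22a13* (chromosome 8, 127885268 to 127900463), a transporter of nicotinate and urate, whose mean was 1.42 ± 1.21 FPKM in males against 22.3 ± 9.95 FPKM in females (SD, n = 5 each; log2 difference 4.24, SE 0.60, adjusted p = 0.00336 by limma). The other entries in the list of transporters and sensors had log2 fold changes between −0.17 and 0.73, the last for *Slc5a8* (limma adjusted p = 0.175), which also carries nicotinate.

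Of 9 other genes of the route before *Haao* and of its side branch to kynurenic acid, 6 were tested and none was called, with 3 at an unadjusted limma p of at most 0.05. *Kmo*, which supplies hydroxykynurenine, averaged 57.2 ± 9.41 FPKM in males against 87.7 ± 22.3 FPKM in females (SD, n = 5 each; log2 fold change 0.59, limma adjusted p = 0.139). It was called in the fit that left out female 2 (0.74, limma adjusted p = 0.0299). *Aadat*, which diverts kynurenine to kynurenic acid, averaged 597 ± 278 FPKM in males against 290 ± 86.3 FPKM in females (log2 fold change −0.96, limma adjusted p = 0.193). The remaining one was *Kyat3*, another aminotransferase of kynurenine, whose log2 fold change was 0.47 (adjusted p = 0.225 by limma). The ring-opening enzymes were near the floor, with at most 8 reads per rat for *Tdo2*, at most 5 for *Ido2* and 0 for *Ido1*, the last allowing up to 3 reads in a library. Of the glutarate branch below *Acmsd*, 0 of 3 genes were called by limma and 0 had an unadjusted p of at most 0.05. Its members *Dhtkd1* and *Aldh8a1*, the latter next in line after *Acmsd*, had log2 fold changes of 0.30 (limma adjusted p = 0.458) and 0.11 (limma adjusted p = 0.754).

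Among other genes of NAD and NADP synthesis, 0 of 5 tested were called by limma and 1 had an unadjusted p of at most 0.05. This was *Nmrk1*, the kinase that salvages nicotinamide riboside, averaging 10.2 ± 0.775 FPKM in males against 7.43 ± 1.79 FPKM in females (SD, n = 5 each; log2 fold change −0.47, limma adjusted p = 0.146), and called lower without female 4 (−0.59, limma adjusted p = 0.0472). For *Nadk*, the NAD kinase, the log2 fold change was 0.18 (adjusted p = 0.396 by limma). Of 15 tested NAD consumers none was called by limma and 2 had an unadjusted p of at most 0.05. These were *Parp14* (log2 fold change −0.50, limma adjusted p = 0.245) and the mitochondrial desuccinylase *Sirt5* (0.20, limma adjusted p = 0.291). Summed over the list, NAD consumers ran from 199 to 205 FPKM in males against 200 to 207 FPKM in females, a narrow range in all rats. Such a sum is carried by the more abundant genes and hides single ones, as *Parp14* ran from 4.26 to 10.7 FPKM over the rats. Of 7 tested genes of nicotinamide clearance and its methyl donor cycle none was called and none had an unadjusted limma p of at most 0.05. The lowest limma p of that list were those of *Ahcy* (log2 fold change 0.29, limma adjusted p = 0.350) and *Aox4*, an aldehyde oxidase (−0.39, limma adjusted p = 0.582), the latter on at most 55 reads per rat. Median log2 fold changes of these 6 lists lay between −0.02 and 0.17, beside −0.01 for all tested genes.

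For the 3 genes with the largest limma t, the genes with the most similar profile were sought among 13354 others averaging 1 FPKM or more, by the root mean square difference of log2 values centred on each gene's mean over the 10 libraries. These distances take in any difference between the sexes and the values of female 2. *Qprt* was closest to *Agxt2* (0.14), which encodes an aminotransferase of mitochondria, *Aqp1* (0.15), the water channel of the proximal tubule, and *Vill* (0.15), where the median gene differed by 0.51. Both *Qprt* (33.9 FPKM) and *Aqp1* (171 FPKM) were at their lowest in female 2. *Naprt* was closest to *Aldh1l1* (0.11), a folate enzyme, *Gpd1* (0.11) and *Tysnd1* (0.12). *Nampt* was closest to *Spata6*, *Parvb* and *Cep85* (0.07 each), a small distance that also reflects how little these genes varied.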

How the data were processed

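The 10 kidney cortex libraries of PCK rats were grouped by the sex in the labels, 5 of each. Reads had been mapped by the authors' provider with HISAT2 (2.0.5 in the submitters' processing notes) to Ensembl Rnor_6.0 and deposited as FPKM for 32545 genes. The notes also name featureCounts 1.5.0-p3, and use of strand is not given in the sources used here. None of the 10 genes overlaps another gene of the table.

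FPKM times gene length was a whole multiple of the value of 1 read for 100% of values (tolerance 0.01 reads), which gave reads and depth. Limits of 3 reads cover counting error only. The closest libraries differed by a chi-square of 9.71 per gene, so each counted as 1 sample. Sex was tested with limma 3.58.1 (R 4.3.3, eBayes with trend) on log2(FPKM + 0.1) over genes averaging 0.1 FPKM or more, with Benjamini-Hochberg adjustment. Fold changes on this scale understate those of low genes. Single genes had a two-sided exact permutation test of mean FPKM (Python 3.11.15, scipy 1.17.1), with 0.00794 as the smallest p for 5 against 5 and for 5 against 4. Both were tested on simulated data.

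The genes, lists and tests were chosen with earlier results of these data known. All 10 genes are named. From each list, genes called at an adjusted p of at most 0.05 are named, otherwise the 2 with the smallest p. *Kyat3*, *Tdo2*, *Ido1*, *Ido2*, *Slc5a8*, *Nmnat2*, and of the markers *Cubn*, *Slc22a6* and *Aqp1*, were named outside this rule after their values were seen. Similar genes are the 3 closest for each of the 3 genes with the largest t. Other pseudocounts, filters, scalings, robust eBayes, a replicate term, leaving out each library and, chosen after seeing the data, limma-voom were the alternatives.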

Additional observations from a re-analysis of the deposited data

Results flagged for a closer look

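Within each sex the highest and lowest of the 5 rats were compared with the rest by Dixon's test for 10 genes and 5 ratios, 30 groups in all. It marked 5 groups, where chance marks about 1 in 20. That count depends on the direction in which the ratios were written, as described for male 5 below.

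Female 1 had a *Nampt* level of 29.0 FPKM, beside 23.4 to 24.6 FPKM in the other females. The same rat had a *Nmnat1* level of 6.97 FPKM, beside 9.17 to 9.86 FPKM in the other females. In male 5 the ratio of *Qprt* over *Acmsd* was 1.0, beside 0.348 to 0.489 in the other males, and that of *Haao* over *Acmsd* was 2.05, beside 0.610 to 0.941. These ratios share the *Acmsd* value of male 5 and are not independent marks. Both marks also depend on which gene is divided by which. Written the other way, *Acmsd* over *Qprt* was 0.999 in male 5, beside 2.05 to 2.87 in the other males. *Acmsd* over *Haao* was 0.489 in male 5, beside 1.06 to 1.64. In that form neither reaches the critical value of 0.71 for male 5. In this rat 6 of 10 proximal tubule markers were at their lowest of all libraries, and the summed macrophage markers were at their highest, at 174 FPKM, and their part in the ratios was not tested. In female 2 the ratio of *Nmnat1* over *Nmnat3* was 1.49, beside 0.730 to 0.840 in the other females.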

How the results depend on the processing

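Under none of the 19 alternatives was any of the 10 genes called, the lowest limma adjusted p being 0.0508 for *Naprt* without female 2. Of 189 recomputed log2 fold changes of these genes, 182 kept their sign and 7 reversed it. *Acmsd* went to 0.00 (−0.0043) with quantile normalization, and with each rat left out it ran from −0.15 to 0.26, *Nadsyn1* from −0.15 to 0.073 and *Nmnat3* from −0.22 to 0.036. The count of the 10 genes with an exact p of at most 0.05 was 2 as deposited, where 14.8% of all tested genes had such a p. It was 4 with equal total reads, a scaling that moved the median of all genes to −0.08, and 2 to 3 with each rat left out. The share of all genes at that p was not computed under these settings. With the replicate block the count was 0, as sign flips cannot go below 0.0625. Over all genes, 232 passed both thresholds (171 to 260 with each rat left out, 137 with a pseudocount of 1) and 424 the adjusted p alone (259 to 543, and 231 with the replicate block). Pathway genes called were 1, and 1 to 2 with each rat left out (*Kmo* added without female 2, *Nmrk1* without female 4). Same-numbered libraries had correlations of their deviations from −0.10 to 0.07. Only for replicate 3 (0.07 against 0.06) was the same-numbered library the closest of the other sex. Pairing by litter was not tested, as no source used here ties a library to its litter. The 60 recomputed ratios moved by less than the SD between rats. A count model on reads was planned and not run, and limma-voom on the reads recovered from the FPKM was used instead. Depth limits *Nnmt* and the ring-opening enzymes. Where a cause is not given, the cause was not tested.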
